A study of Mus musculus with 6 samples.

Results

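The stop codons UAA, UAG and UGA and the methionine codon AUG were taken from tables of ribosome footprints around codons in mouse brain, 4 of the 64 codons counted. They were chosen by name, as every codon that ends a reading frame together with the codon that opens one. Footprints were prepared from homogenised brain tissue of male C57BL/6N mice aged 10 weeks, 3 of them wild type (WT) and 3 homozygous for a germline CRISPR deletion of a phenylalanine tRNA gene (tRNA-Phe-1-1-/-, KO). The deletion was constitutive, and both groups shared the C57BL/6N background. Footprints of the 3 mice of a genotype were added into 1 table, so there was no replicate error, no test between the genotypes was possible, and all values describe these pooled libraries. The tables name no gene, so neither the loss of the tRNA gene nor the tissue could be checked in them.

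Each table counts read 5′ ends at 33 positions, from -30 to 2, where 0 is the codon's first base. At position -15, for example, the read begins 15 bases before the codon. A codon's share is its percentage of the counts that all 64 codons had at that position. The position sums ran from 363910 to 539833 counts in WT and from 536238 to 812424 in KO brains. The floor was set at 3 counts of the smallest position sum, a share of 0.000824% in WT and 0.000559% in KO. This floor is not an interval limit. For a count of 0 the upper limit of the 95% Wilson interval can be higher, as for UAG at -13 in WT (0.00104%). The 4 codons together held 174996 counts in WT and 265793 in KO, or 1.17% and 1.19% of all counts. Intervals are 95% Wilson intervals of shares and 95% intervals from the counts for ratios. They cover counting error only, since the same read enters the table at more than 1 position and PCR duplicates were not separable.

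Stop codons have no tRNA of their own in the standard genetic code. Release factors recognise them in the A site, where an elongating ribosome would accept an aminoacyl-tRNA, and the finished peptide is then set free. AUG is read by the initiator tRNA in the P site at the start of a reading frame and by the elongator methionine tRNA everywhere else. A footprint is the stretch of mRNA that a ribosome shields from a nuclease, and the place where the nuclease cuts sets the read end from which codons are counted.

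The codons are shown with G in capitals, because the place of G in the codon went with the shape of each profile.
Stop UAA (ochre): uaa
Stop UAG (amber): uaG
Stop UGA (opal): uGa
Met AUG: auG
Each member was set beside the other codons with the same placement of G. UAA belonged to 8 codons with neither G nor C, UAG and AUG to 9 codons with G only at base 3, and UGA to 9 codons with G only at base 2. For scale, coding sequences of 21554 genes in the GENCODE mouse annotation (1 canonical sequence per gene, not weighted by expression) held UAA as 0.0506%, UAG as 0.0411%, UGA as 0.0904% and AUG as 2.21% of their codons. The stop codon was UGA in 49.2% of 21505 genes, UAA in 28% and UAG in 22.8%.

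UGA, the opal stop, was the most counted stop, with 18370 counts in WT and 26347 in KO brains. Its share was 0.201% at position -30, 0.3003% at -22 and 0.151% at -16 in WT, and 0.231%, 0.278% and 0.218% at the same positions in KO. It then stood at 0.0102% in WT and 0.00984% in KO at position -15, which was 14.9 times and 22.1 times below the position before. From -15 to 0 the UGA profile stayed low in both genotypes. The highest share there was at -1, with 0.0407% in WT and 0.0340% in KO. The position with the most UGA counts of all was 2, where the read begins on the last base of the codon and G is the base just before the read. UGA took 1.30% of the counts at position 2 in WT (4845 counts) and 1.24% in KO (6805 counts), and these were 26.4% and 25.8% of all its counts. At position 1, the neighbouring value was 0.0133% in WT and 0.00788% in KO.

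The 16 codons with G at base 2, whatever their other bases, held 81.4% of the counts at position 2 in WT and 81.7% in KO. UGA was only place 12 among these 16 by its share. Relative to its share of annotated codons it was place 1, at 14.3 times in WT and 13.7 times in KO, while the other 15 codons had a median of 4.92 times (0.0439 to 7.73) in WT and 5.13 times (0.0282 to 7.55) in KO. Among annotated stretches that resemble the reads (17 bases without G directly after a G, 81572 in all), UGA made up 0.935% of the 19995 codons at position 2. The UGA counts can include codons that do not end a frame. In the annotation, 96 internal UGA codons lay in 13 mitochondrial genes, where UGA is read as tryptophan, and 93 lay in 32 other genes, a class that includes the selenoproteins. Reads on these and reads on stop codons cannot be told apart in the tables.

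UAG, the amber stop, was the rarest member, with 4040 counts in WT and 5885 in KO. Its share was highest at position -22, at 0.135% in WT and 0.137% in KO. It was 0.0419% in WT and 0.0455% in KO at -16, 0.00907% and 0.0141% at -15, and 0.000937% (5 counts) and 0.00472% (38 counts) at -14. From -14 to 2 the codon had only 179 counts in WT and 240 in KO. It had a count of 0 at -13 and -2 in WT and at 1 in KO. Several low positions differed strongly between the tables in opposite directions. At -11 there were 49 counts in WT and 1 in KO, and at -7 there were 17 and 3. At -5 there were 2 counts in WT and 52 in KO. The tables do not show how many transcripts a count came from.

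AUG, the methionine codon, had 135532 counts in WT and 209384 in KO. From -30 to -15 its share ran from 1.37% to 2.45% in WT and from 1.44% to 2.32% in KO, with the highest value at -26 in both. It was 1.58% in WT and 1.48% in KO at -15 and 0.0948% and 0.121% at -14, a step of 16.6 times in WT and 12.2 times in KO. From -14 to 2 the lowest share was at position 1, 0.00611% in WT and 0.0123% in KO. In WT the highest share in that window was at position 2, where the G of AUG is the first base of the read, with 0.187%. The corresponding KO value was 0.158%, and the highest KO share was at -6, with 0.191%. Of the annotated AUG codons, 8.14% were start codons, and the tables do not separate these from internal methionine codons.

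**Figure D1:**
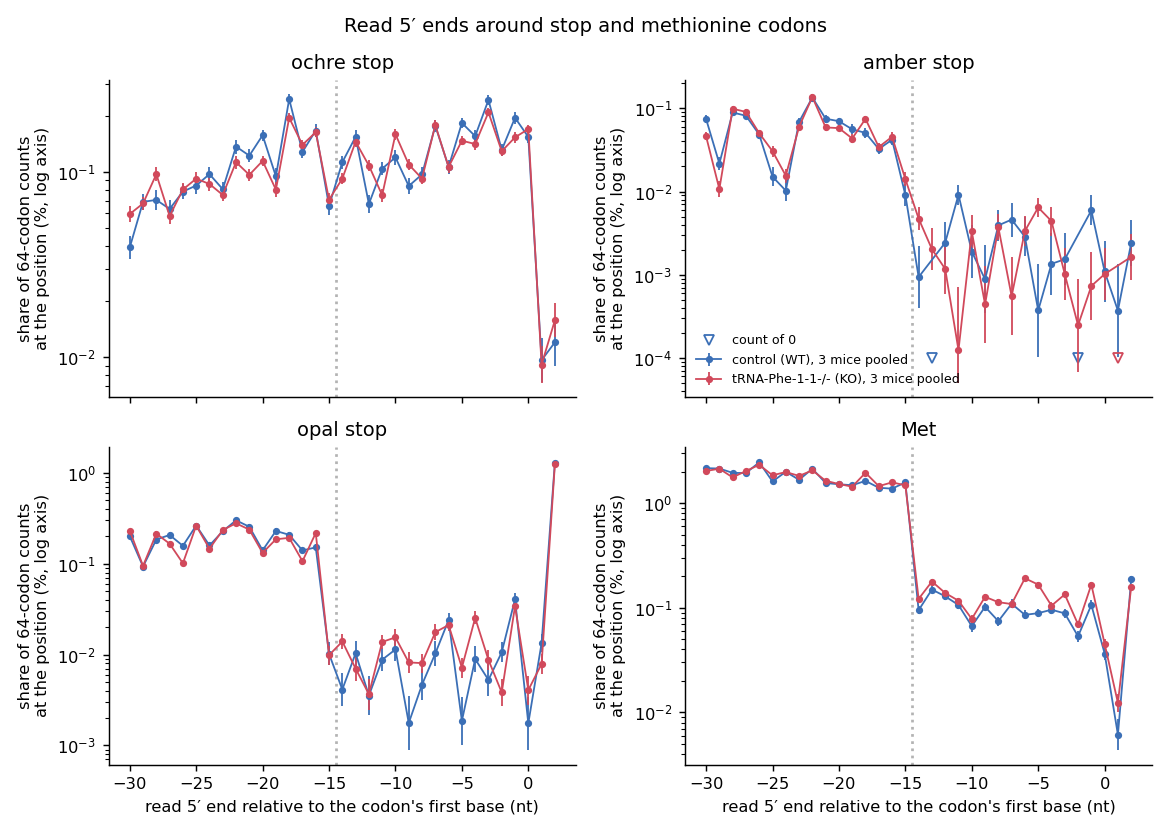
Share of all codon counts (percent, log axis) at each read 5′ end position for the 3 stop codons and Met, in WT (blue) and KO (red) pooled libraries. Bars are 95% Wilson intervals (counting error), open triangles are counts of 0, and the dotted line lies between -15 and -14, where Met falls from 1.58% to 0.0948% in WT. The opal stop peaks at position 2 at 1.30% in WT.

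UAA, the ochre stop and the member with no G, showed no such step. It had 17054 counts in WT and 24177 in KO. Its share was 0.0391% in WT and 0.0592% in KO at -30 and 0.247% and 0.196% at -18. Between -15 and 0 it varied without a lasting fall, from 0.0655% at -15 to 0.245% at -3 in WT and from 0.0708% at -15 to 0.210% at -3 in KO. At position 0 it was 0.154% in WT and 0.170% in KO. At position 1, where U is the base just before the read, it dropped to 0.00963% in WT and 0.00911% in KO, 16.03 times and 18.7 times below position 0. The other 7 codons with neither G nor C also dropped between these positions, by a median of 12.1 times in WT (5.29 to 31.3) and 11.8 times in KO (6.14 to 24.6).

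The steps of AUG and UGA fell at the same place when the profiles were aligned on G. AUG dropped between -15 and -14 and UGA between -16 and -15, in each case as the G of the codon moved from base 18 of the read to base 17. UAG fell over 2 positions. Its share dropped 4.62 times in WT and 3.22 times in KO between -16 and -15, as G moved from base 19 to base 18. Between -15 and -14 it dropped 9.69 and 2.99 times. The UAG share also dipped further upstream, to 0.0102% in WT and 0.0155% in KO at -24, close to its values of 0.00907% and 0.0141% at -15. The fall from -16 to -15 thus cannot be told from this scatter. The mean share before the step over the mean from there to position 0 was 19.3 for AUG, 22.3 for UAG and 19.7 for UGA in WT, and 14.6, 24.4 and 14.8 in KO. Sense codons with the same G placement also had higher shares before the step. The 7 other codons with G only at base 3 had ratios of 10.9 to 27.1 (median 17.6) in WT and 7.60 to 19.7 (median 13.3) in KO, and the 8 others with G only at base 2 had 14.4 to 32.1 (median 20.6) and 13.2 to 26.1 (median 18.3). UAG in KO lay above the range of its group, and the other values of the 3 codons lay within theirs. For the change between -15 and -14 alone, UAG in KO (2.99 times) instead lay below the other 7 codons of its group, which had 4.18 to 19.3 times. For UAA the same ratio was 0.764 in WT and 0.738 in KO, inside the ranges of the other codons with neither G nor C, which were 0.582 to 0.851 and 0.603 to 0.825.

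**Figure D2:**
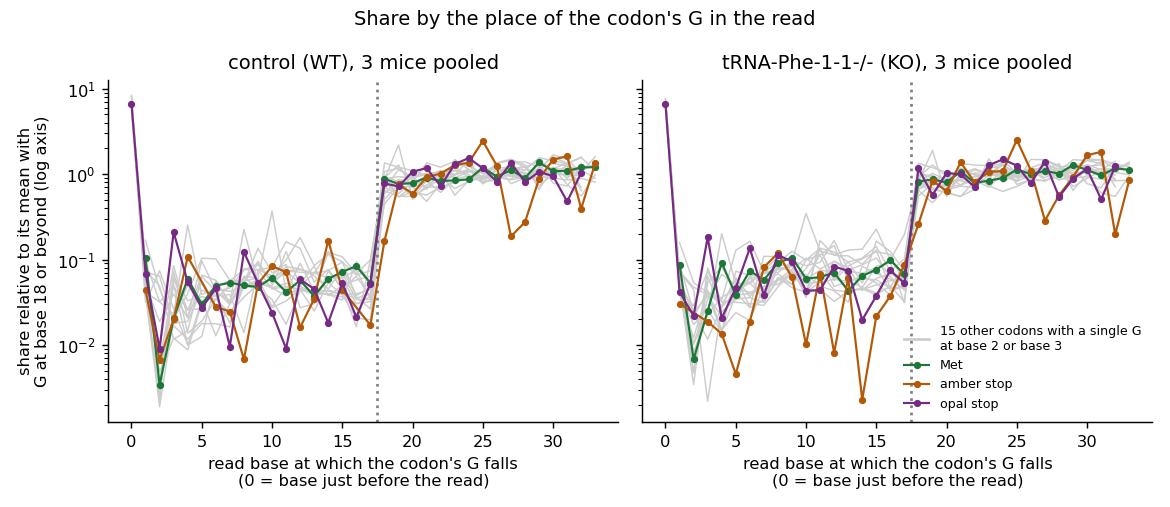
Share of Met, the amber stop and the opal stop relative to each codon's own mean with G at base 18 or beyond (log axis), against the read base at which the codon's G falls, with 15 other codons with G only at base 2 or base 3 in grey; counts of 0 are left out. In both pooled libraries the lines lie low while G falls within read bases 1 to 17, and the opal stop rises again at 0, the base just before the read.

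The profile of a codon over the 33 positions was mostly closest to those of sense codons with a like placement of G. On log2 shares in WT, AUG was most like AAG (r = 0.98), CAG (0.97) and CUG (0.97), and UGA most like AGA (0.95), AGC (0.94) and AGU (0.93). UAG was closest to ACG (0.88), AGG (0.86) and AAG (0.86). UAA was closest to CUU, CUA and CAA, each at 0.86, codons that also lack G. These Pearson correlations are over 33 positions that share reads and position sums, and they are a description only. The WT and KO profiles of the same codon correlated at 0.99 for AUG, 0.96 for UAA, 0.96 for UGA and 0.82 for UAG.

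Against the annotation, the stop codons were counted more often and AUG less often at positions outside the first 17 bases of the read. Over positions -30 to -16, UAA had a mean share of 2.16 times its share of annotated codons in WT and 2.001 times in KO, UGA 2.15 and 2.07 times, and UAG 1.41 and 1.38 times. AUG had 0.813 times in WT and 0.830 times in KO. Taking annotated stretches that resemble the reads as the scale, the values were 1.63 in WT and 1.51 in KO for UAA, 1.99 and 1.91 for UGA, 1.30 and 1.28 for UAG, and 0.724 and 0.739 for AUG. The order of the members was thus UGA, UAA, UAG and AUG on the second scale, with UGA and UAA close together on the first. Neither scale takes account of which mRNAs brain ribosomes occupy, and the part of transcript abundance in these values was not tested.

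The split of stop codon counts depended on the position. Over all positions UAA held 43.2%, UAG 10.2% and UGA 46.5% (95% interval 46.1 to 47.0) in WT, and 42.9%, 10.4% and 46.7% in KO. Over -30 to -16 the split was 30.6%, 15.97% and 53.4% in WT and 29.9%, 16.4% and 53.7% in KO, with UGA first, UAA second and UAG last as among the annotated coding ends. Over -14 to 0, UAA held 92.1% in WT and 90.2% in KO. UGA held 6.20% and 8.29% there, and UAG 1.66% and 1.55%. At position 2, UGA made up 98.9% of the stop counts in WT and 98.6% in KO.

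**Figure D3:**
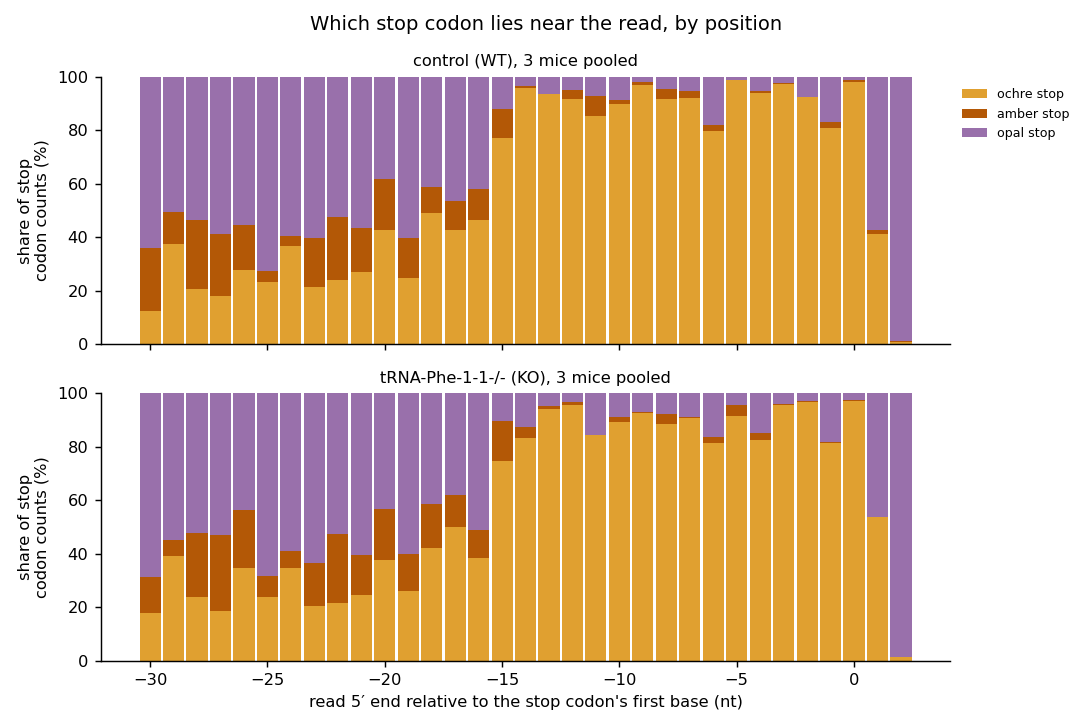
Percent of stop codon counts held by the ochre, amber and opal stops at each read 5′ end position, counted from the stop codon's first base, WT above and KO below. The opal stop leads at most positions upstream of -15 (53.4% over -30 to -16 in WT), the ochre stop from -15 to 0, and the opal stop takes 98.9% at position 2 in WT.

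Termination takes place with the stop codon in the A site, which fivepseq, the program that made the tables, places at position -17. At -17 the UAA share was 0.128% in WT and 0.140% in KO, against a mean of 0.0964% ± 0.0412 (SD over 4 other positions of the same reading frame from -30 to -15) in WT and 0.0844% ± 0.0208 in KO. The ratio was 1.33 in WT, place 13 of 64 codons, and 1.66 in KO, place 1 of 64. UAG had ratios of 0.622 in WT and 0.767 in KO, and UGA 0.904 and 0.758. AUG had 0.721 in WT and 0.745 in KO. The median of the 64 codons was 0.870 in WT and 0.907 in KO, so UAA lay above it at this position in both tables, UAG and AUG below it in both, and UGA above it in WT and below it in KO. At the next position, -16, UAA had a ratio of 1.73 in WT and 1.72 in KO, and UGA 0.619 and 0.926. The highest UAA share from -30 to -15 lay at neither position but at -18, with 0.247% in WT and 0.196% in KO, where no such ratio was taken. No peak common to the 3 stop codons was seen at -17 or -16. At -15 the ratios in WT and KO were 0.575 and 0.714 for UAA, 0.156 and 0.247 for UAG, and 0.0494 and 0.0506 for UGA. The shares of UGA and UAG fell between -16 and -15, as described above, so a peak at -15 could not be judged for them. Which position holds the A site in these reads was not tested.

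Between the genotypes the 4 codons differed little when all 33 positions were added. The log2 ratio of the KO to the WT share was -0.07 for UAA (95% interval -0.10 to -0.04), -0.03 for UAG (-0.08 to 0.03), -0.05 for UGA (-0.07 to -0.02) and 0.04 for AUG (0.03 to 0.05). For the 3 stops together it was -0.05 (-0.07 to -0.03). UAA, UGA and UAG were at places 58, 55 and 52 of 64 from the highest ratio, and AUG at place 25. No member was past a fold of 1.1 in either direction (0 of 4), where 1 of 64 codons was, AUA at 0.17 (1.56%), which was named after its value was seen. The 64 codons had a median of 0.03. Summed over all positions, the share of each stop codon was lower in the KO table by less than 1.1-fold, and the UAG interval includes 0. The directions for UGA and UAG changed with the choice of positions. Over -20 to 0 the log2 ratios were 0.0124 for UGA and 0.0291 for UAG.

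From -30 to -15, the mean share of UAA was 0.106% in WT and 0.0994% in KO, a log2 ratio of -0.10 (-0.14 to -0.06) and place 63 of 64. UAG had 0.0549% and 0.0542% (-0.02), UGA 0.183% and 0.176% (-0.06), and AUG 1.79% and 1.81% (0.02). The summed ratio of UAA had the opposite sign to its group, since the other 7 codons with neither G nor C had 0.02 to 0.15 (median 0.07). By position, however, the UAA ratios ran from -0.46 to 0.60, with the higher share in KO at 6 of 16 positions. None of the 4 members was past the fold here, where 3.12% of the 64 codons were higher in KO and 0% lower.

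From -14 to 2, AUG was the member with the largest difference. Its mean share was 0.0929% in WT and 0.119% in KO, a log2 ratio of 0.36 (0.32 to 0.40) and place 6 of 64. It was the only member past the fold upwards, against 18 of 64 codons (28.1%). Its group moved with it, because all 7 other codons with G only at base 3 were past the fold, at 0.24 to 0.48 (median 0.38). In this window the G of these codons falls within the first 17 bases of the read. UGG, the tryptophan codon and the other amino acid codon without a synonym, had 0.22 from -14 to 2 and 0.02 from -30 to -15. UAG, with the same G placement as AUG, had -0.19 (-0.47 to 0.10) and was past the fold downwards, at place 64, but its interval from 179 and 240 counts includes 0. Of the 64 codons, 2 (3.12%) were past the fold downwards, the other being CCC at -0.15, named after its value was seen. UAA had -0.05 (-0.08 to -0.01), where the other 7 codons of its group had 0.07 to 0.19, and UGA had -0.02 (-0.07 to 0.03). The UGA value mostly reflects position 2, with 4845 of its 5545 counts in this window in WT and 6805 of 8102 in KO. From -15 to 0, where its G falls within the first 17 bases of the read, the mean UGA share was higher in KO, at 0.0126% against 0.00988% in WT.

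**Figure D4:**
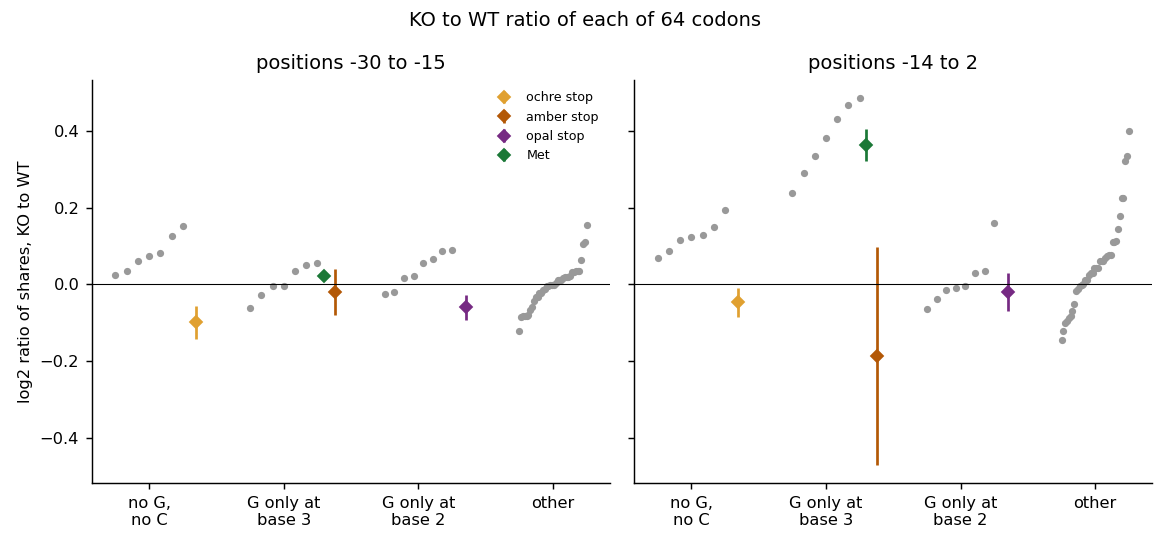
Log2 ratio of the KO to the WT share of each of 64 codons at positions -30 to -15 (left) and -14 to 2 (right), by placement of G; grey points are the other codons and diamonds the members with 95% intervals from the counts. Met (0.36, right) lies among the other codons with G only at base 3, and the ochre stop (-0.10, left; -0.05, right) lies below the other codons with neither G nor C.

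Position by position, the WT and KO Wilson intervals of AUG did not overlap at 21 of 33 positions, 16 with the higher share in KO and 5 with the higher share in WT. Over all 64 codons and 33 positions the intervals were apart with KO higher in 39.9% of 2112 cases and with KO lower in 24.7%. UAA had 5 positions higher and 9 lower in KO, UAG 5 and 6, and UGA 8 and 6. Of the 17 positions from -14 to 2, AUG was higher in KO at 10 and lower at 1, position 2. Its largest ratio was at -6, with 389 counts in WT and 1311 in KO (log2 ratio 1.16). The UAA ratios ran from -0.48 at -11 to 0.69 at -12, neighbouring positions with opposite signs. The SD of the position ratios, over positions with at least 20 counts in both tables, was 3.52 times the median counting error for UAA, 4.36 times for UAG, 4.58 times for AUG and 8.78 times for UGA, against a median of 5.82 times for the 64 codons. For UAG this kept 17 of 33 positions, and the positions with the widest ratios, such as -11 and -5, were not among them. The counting intervals are thus narrower than the scatter between positions.

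Reading frames were taken from the position, so that the read 5′ end falls on base 1, 2 or 3 of the codon. UGA counts lay mostly on base 3, with 50.5% in WT and 51.6% in KO, because position 2 is of that frame. From -30 to -15 they were spread as 36.5%, 31.3% and 32.2% in WT and 36.5%, 29.3% and 34.2% in KO. Over all positions AUG had 37.5% of its counts on base 1 and 37.5% on base 2 in WT, and 38.0%, 37.6% and 24.4% on the 3 bases in KO, and the 64 codons together as 33.4%, 39.4% and 27.2% in WT. UAA had 34.3%, 36.1% and 29.6% in WT, and UAG 34.5%, 33.6% and 31.96%.

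The KO to WT ratios were next taken by frame, over all positions. With the read starting on base 2, the log2 ratio of KO to WT was -0.17 for UAA, -0.17 for UAG and -0.15 for UGA. On base 1 it was -0.02, -0.01 and -0.07, and on base 3 it was -0.03, 0.06 and -0.01. For the 3 stops together this came to -0.04 on base 1 (-0.07 to -0.01), -0.16 on base 2 (-0.20 to -0.13) and -0.01 on base 3 (-0.04 to 0.02). The corresponding AUG ratios were 0.06, 0.04 and 0.03. On base 2 all 64 codons had a median of 0.03. Over all positions each stop codon had its most negative ratio in reads that start on base 2, as did 21 of 64 codons. Within the windows this did not hold, since from -30 to -15 UAA had -0.16 on base 1 and -0.11 on base 2, and from -14 to 2 UAG had 0.05 on base 2. The differences between frames have no replicate check. From -14 to 2 the AUG ratio was 0.53 on base 1 (0.45 to 0.61), 0.50 on base 2 (0.43 to 0.57) and 0.15 on base 3 (0.08 to 0.22). UGA had 0.34 on base 1 from 165 counts in WT and 314 in KO, 0.33 on base 2 from 233 and 441, and -0.04 on base 3, the frame that holds position 2. UAA had 0.10, -0.23 and -0.04 in this window.

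**Figure D5:**
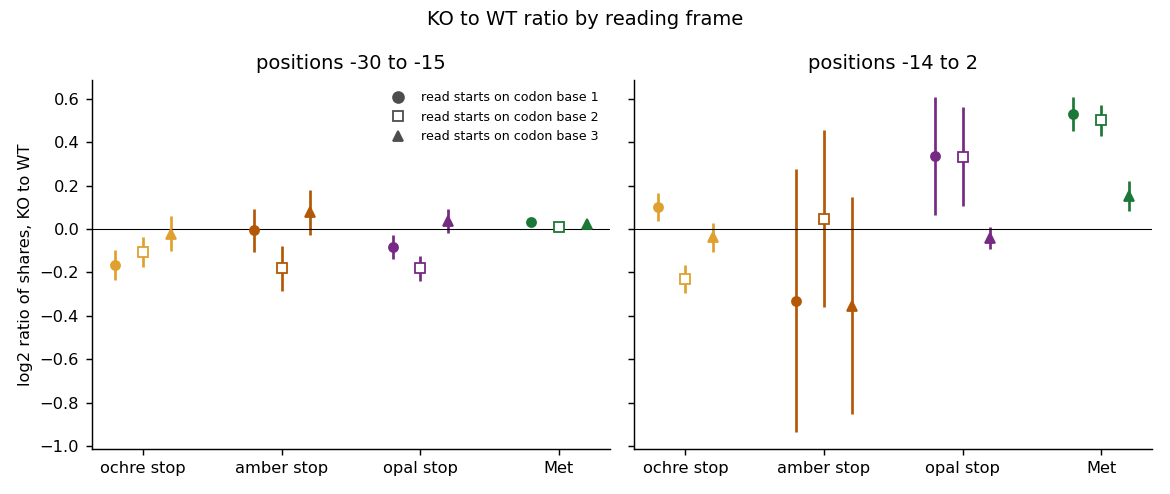
Log2 ratio of the KO to the WT share of each member by the codon base on which the read starts, at positions -30 to -15 (left) and -14 to 2 (right), with 95% intervals from the counts. Met at -14 to 2 is at 0.53, 0.50 and 0.15 for reads that start on bases 1, 2 and 3, while the amber stop intervals there all include 0.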

How the data were processed

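Ribosome footprint reads came from the brains of 3 control (WT) and 3 knockout (KO) mice. The authors trimmed adaptors with TrimGalore and cutadapt, removed reads on GENCODE non-coding transcripts with bowtie2 2.4.5, aligned the rest to GRCm39 with STAR, and used fivepseq with the Ensembl annotation to count where reads begin around each codon, adding the 3 mice of each genotype. The deposited values are whole-number counts, not normalized, in another layout than a gene table, with 64 codons by 33 positions in each of 2 tables. The files spell codons with T, printed here as U. The nuclease, and whether fivepseq scaled down extreme counts, are not given in the sources used here.

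Shares are a codon's count over the 64-codon sum at the position. A window's ratio is that of its summed shares. The windows -30 to -15 and -14 to 2 were also used. A codon was past the fold beyond 1.1 either way. Profile correlations added 0.5 to each count. All 4 members are named, with the 3 codons of highest profile correlation in WT, UGG, and groups by the place of G. Members, groups and windows were chosen with earlier results of these data known. Codon usage came from the GENCODE M39 annotation of GRCm39, with 1 canonical coding sequence per gene. The calculation was tested on simulated tables, in which intervals held the true ratio in 95.2% of cases; the simulation drew positions separately. Alternatives changed the denominator, window, summary and count minimum (20). Calculations ran in Python 3.11.15 (pandas 2.3.3, numpy 2.4.6, scipy 1.17.1), and plots in matplotlib 3.10.9.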

Additional observations from a re-analysis of the deposited data

How the results depend on the processing

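No paired analysis was possible because each table pools its 3 mice, which also prevented leaving out single mice. Of 52 alternative values of 7 results, 27 stayed within the counting error and 25 moved beyond it, and 7 changed sign, 2 of them for UAG, whose interval includes 0. With counts as deposited, the log2 ratios became 0.504 for UAA, 0.543 for UAG, 0.520 for UGA, 0.515 for the 3 stops and 0.628 for AUG, since the KO table is deeper. Over positions -20 to 0, UGA was at 0.0124, UAG at 0.0291 and AUG at 0.122. Over -30 to -15, UAA was at -0.0986 and AUG at 0.0227, and over -14 to 2, UAG was at -0.187 and AUG at 0.362. The mean of the position ratios was -0.0211 for UAA, -0.200 for UAG, 0.229 for UGA and 0.223 for AUG, which gives positions with few counts the same weight as the others. The direction for UGA therefore depended on the window and the summary, and that for UAG on the window. The UGA percent of stop counts (WT, KO) was 23.6 and 24.5 over -20 to 0, 52.8 and 52.9 over -30 to -15, 36.6 and 37.0 over -14 to 2, and 32.5 and 33.2 as a mean over positions. Without position 2, an alternative chosen after seeing the data, it was 39.1 and 39.5. Shares among the 61 sense codons, reads of all 3 frames as denominator and the count minimum changed no direction. UAG from -14 to 2 is limited by depth.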
